A study of Mus musculus with 7 samples.

Results

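Tcf23 and 7 further genes of the uterine stromal progesterone response were examined in ovarian stromal tissue of mice with and without the progesterone receptor (PGR). The genes were taken from a fixed list of known targets or partners of PGR in the uterine stroma (Tcf23, Hand2, Zbtb16, Fkbp5, Fkbp4, Nr2f2, Hoxa10 and Hoxa11), 8 of the 52230 genes measured. Tcf23 was chosen by its difference in CPM between the genotypes in these libraries, so its values are described here without a test. The list as a whole was chosen with earlier results of these data known. The libraries came from ovaries depleted of granulosa cells, 4 from wildtype mice (PGR +/+, WT) and 3 from null mice (PGR -/-, KO) of the PRKO strain, whose allele is Pgrtm1Bwo. Both genotypes were 21 to 27 days old and received 5 IU of PMSG (eCG) and, 44 h later, 5 IU of hCG. Each library pooled tissue of 3 mice collected 8 h after hCG, the time at which follicles prepare to rupture. The receptor gene is disrupted in every tissue of KO mice, so a change in the stroma is not tied to the receptor in stromal cells. The tissue holds theca, vessels, leukocytes, fibroblasts and other cells together, and fewer cells of a type cannot be told apart from less RNA per cell. The labels do not say whether the pools came from separate litters or days, and p-values measure the spread between these pools.

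PGR is a steroid-activated transcription factor, kept ready for hormone by heat shock proteins and their cochaperones. In the uterus, stromal PGR directs decidualization, the change of fibroblasts into the secretory cells that receive the embryo, through a set of transcription factors that includes HAND2, COUP-TFII (encoded by Nr2f2), PLZF (encoded by Zbtb16), the HOXA proteins and TCF23. The ovary uses the same receptor for follicle rupture. Of the 8 genes, Tcf23 and Zbtb16 were 2.72-fold lower in KO than in WT stroma, with no overlap between the genotypes. Hoxa10 was also lower in each KO library, at a level of about 1 CPM (counts scaled to a common library total, with TMM normalization). Fkbp5, Fkbp4 and Nr2f2 were abundant and overlapped between genotypes, and Hand2 and Hoxa11 were at or near 0 reads in all libraries.

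The number of reads assigned to transcripts ranged from 47.4 M to 63.4 M per library. Pgr itself was lower in each KO library, at 6.13 to 7.56 CPM against 16.8 to 31.0 CPM in WT (log2 fold change -1.72 ± 0.202 SE, edgeR adjusted p = 0.0544). Genes were compared with edgeR's quasi-likelihood test over the 19233 genes with enough reads, and a gene was called at an adjusted p of at most 0.05 and a log2 fold change of at least 0.5 in either direction. This called 2 genes (0.0104% of those tested), and DESeq2 called 145 (0.754%). The median absolute log2 fold change of all tested genes was 0.10.

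The 250 bases upstream are shown for the start of Tcf23, the more upstream of the Zbtb16 transcripts measured and both main starts of Fkbp5. The first 2 genes were low in KO, and the third is transcribed from a pair of distant starts that differed in their reads. The windows are given 5′ to 3′ on the strand of the gene, from the GRCm39 genome. Capitals mark matches, on either strand, to ACANNNTGT, the core of the element bound by PGR and the glucocorticoid receptor, or to AGAACA, 1 arm of that element. An AGAACA and an ACANNNTGT can share their ACA.
Tcf23-201, chr5:31125732-31125981, plus strand: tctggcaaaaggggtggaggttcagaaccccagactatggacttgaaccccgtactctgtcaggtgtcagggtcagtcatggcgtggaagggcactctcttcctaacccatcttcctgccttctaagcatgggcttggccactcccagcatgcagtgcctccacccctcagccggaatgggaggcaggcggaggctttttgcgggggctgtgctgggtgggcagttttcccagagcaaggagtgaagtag
Zbtb16-202, chr9:48747658-48747907, minus strand: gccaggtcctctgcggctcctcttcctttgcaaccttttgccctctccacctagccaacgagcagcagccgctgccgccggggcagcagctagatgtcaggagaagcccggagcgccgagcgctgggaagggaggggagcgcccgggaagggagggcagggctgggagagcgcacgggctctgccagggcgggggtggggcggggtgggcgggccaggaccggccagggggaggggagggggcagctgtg
Fkbp5-201, chr17:28705153-28705402, minus strand: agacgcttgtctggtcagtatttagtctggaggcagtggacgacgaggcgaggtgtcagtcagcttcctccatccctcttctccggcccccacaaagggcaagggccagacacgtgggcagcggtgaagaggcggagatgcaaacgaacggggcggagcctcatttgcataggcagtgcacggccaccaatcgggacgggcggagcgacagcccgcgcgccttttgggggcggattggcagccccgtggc
Fkbp5-202, chr17:28737087-28737336, minus strand: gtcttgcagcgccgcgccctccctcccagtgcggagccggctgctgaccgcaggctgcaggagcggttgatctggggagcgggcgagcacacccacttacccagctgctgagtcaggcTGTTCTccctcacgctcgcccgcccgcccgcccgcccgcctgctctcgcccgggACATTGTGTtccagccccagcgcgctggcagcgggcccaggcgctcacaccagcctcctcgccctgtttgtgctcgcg

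Of these windows, the one before Fkbp5-202 held a core, ACATTGTGT, whose first base lies 78 bases before the start, and an AGAACA whose first base lies 132 bases before it. Before the outermost annotated starts of 21770 protein-coding genes, 5.84% of windows of this length held the core and 15.5% the AGAACA arm. The annotated Zbtb16 and Fkbp5 genes begin further upstream than the transcripts shown, so their windows are not of that kind. The Tcf23 window held neither. It held 1 E box (CANNTG, the element of bHLH factors), CAGGTG at 190 bases before the start, as 66.5% of all windows held at least 1. The Zbtb16-202 window held an E box, CAGCTG, at 8 bases before the start, but Zbtb16-202 took only 8.9% of the gene's reads on average. The window before Zbtb16-201, which took 91.1%, held no core, AGAACA or E box, and is not printed because it overlaps the first exon of Zbtb16-202. A match describes the letters of the window only.

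Tcf23 encodes a basic helix-loop-helix (bHLH) protein that is known for its part in decidualization of the mouse uterus. The gene lies on chromosome 5 (31125982 to 31134362, plus strand, GRCm39) and has 1 annotated transcript, Tcf23-201. In WT replicates 1 to 4 it was measured at 23.8, 23.8, 22.3 and 23.0 CPM. In KO replicates 2 to 4 it was measured at 8.20, 8.00 and 9.42 CPM. The WT libraries were close to each other, and the highest KO library was well under the lowest WT library. WT averaged 23.2 ± 0.721 CPM (SD, n = 4) and KO 8.54 ± 0.767 CPM (SD, n = 3), or 36.7% of WT. The log2 fold change was -1.44 ± 0.0775 (SE) and ranged from -1.52 to -1.39 when each library was left out in turn.

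Tcf23 varied little among the WT libraries, and Zbtb16 varied widely. Among the 5707 genes with a WT mean of 10 to 50 CPM, the median SD of log2 CPM over the WT libraries was 0.099. For Tcf23 this SD was 0.045, and 11.1% of those genes had a lower one. For Zbtb16 it was 0.462, and 98.2% had a lower one. The genes thus had almost the same fold change, and standard errors of 0.0775 and 0.25. But Tcf23 was chosen by its difference between genotypes in these libraries, which can favour a small spread. Its spread and standard error are therefore a description and not a test.

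Zbtb16 encodes PLZF, a zinc finger repressor that is induced by progesterone in endometrial stroma and by glucocorticoid in several tissues. The paper reported induction of Zbtb16 after hCG in granulosa cells and its loss there in KO mice. Granulosa markers were still present in this tissue, and how much of the Zbtb16 signal came from those cells was not tested. Zbtb16 lies on chromosome 9 (48563141 to 48748664, minus strand), 39.6 Mb from Pgr. In WT it was measured at 13.1, 25.4, 15.1 and 23.2 CPM in replicates 1 to 4. In KO it was measured at 5.44, 7.84 and 7.85 CPM in replicates 2 to 4. WT replicates 2 and 4 were high and replicates 1 and 3 lower, and all lay above each KO library. WT averaged 19.2 ± 5.98 CPM (SD, n = 4) and KO 7.04 ± 1.39 CPM (SD, n = 3), again 36.7% of WT.

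For Zbtb16 the log2 fold change was -1.45 ± 0.25 (SE, 95% interval -2.02 to -0.88). This did not pass in edgeR (adjusted p = 0.16) or in limma-voom (adjusted p = 0.215). It passed in DESeq2 (adjusted p = 9.46e-07) and in edgeR without a filter on low counts (adjusted p = 0.0203). Over all alternatives, the adjusted p of Zbtb16 ran from 5.66e-10 to 0.54, and its log2 fold change from -1.58 to -1.29. In a two-sided exact permutation test of its log2 CPM over the libraries, p was 0.0286, the smallest this design can give. The same test gave 0.0286 for Hoxa10 and Pgr as well. This p largely restates the lack of overlap, which 5.12% of all genes tested showed in the same direction.

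Hoxa10 encodes a homeobox factor that the uterine stroma needs to respond to progesterone. It lies on chromosome 6 (52208164 to 52217834, minus strand). It received 50, 55, 66 and 61 reads in WT replicates 1 to 4, or 0.961, 1.09, 1.17 and 0.981 CPM. It received 39, 36 and 24 reads in KO replicates 2 to 4, or 0.677, 0.75 and 0.414 CPM. Each KO library lay below each WT library, with KO replicate 4 the lowest. WT averaged 1.05 ± 0.0986 CPM (SD, n = 4) and KO 0.614 ± 0.177 CPM (SD, n = 3). The log2 fold change of Hoxa10 was -0.78 ± 0.226 (SE, 95% interval -1.29 to -0.27) and did not pass (edgeR adjusted p = 0.355, DESeq2 adjusted p = 0.174).

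Most Hoxa10 reads were assigned to a transcript with no defined coding sequence. Hoxa10-203 took 83.4 ± 14.4% of the gene's reads in WT (SD, n = 4) and 81.4 ± 13.7% in KO (SD, n = 3), while the coding Hoxa10-201 took 10.6 ± 7.67% and 15.1 ± 16.3%. Hoxa10-202 is also coding and took 10.6 reads in WT replicate 4. With at most 10.7 reads assigned to Hoxa10-201 in any library, the level of the coding transcripts was measured only coarsely. The shares of Hoxa10-203 and Hoxa10-201 both overlapped between the genotypes.

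Counting the genes of the list, 3 of the 6 that passed the filter on low counts were lower in each KO library than in each WT library. Of all genes tested, 5.12% did the same. Tcf23, 1 of the 3, was chosen for this difference, and the list was chosen with earlier results of these data known. The counts beside the shares of all genes are therefore a description and not a test. Of the other 5 tested, Zbtb16 and Hoxa10 had an unadjusted p under 0.05 and were lower in KO, against 5.10% of all genes tested. None of the 5 was called by edgeR or limma-voom, and DESeq2 called Zbtb16, where it called 0.447% of all genes as lower.

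**Figure D1:**
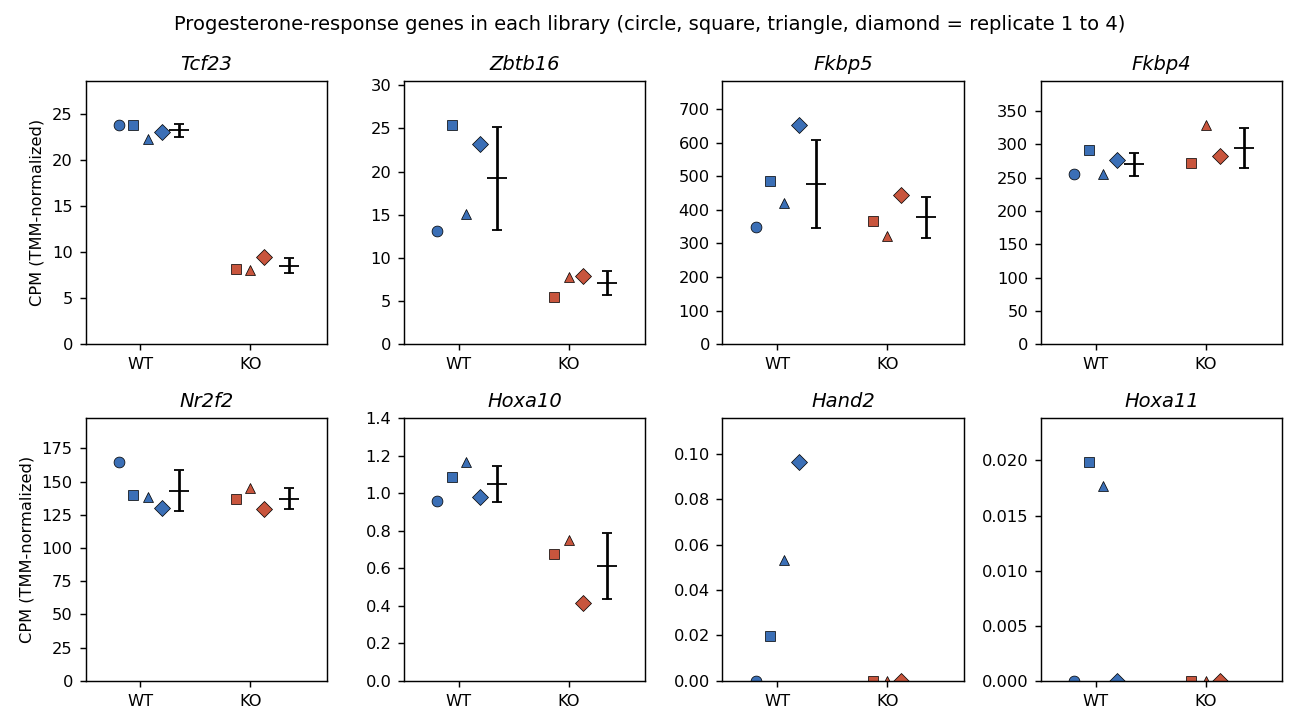
TMM-normalized CPM (vertical axis, from 0 in each panel) of the 8 genes in each of the 4 WT (blue) and 3 KO (red) libraries, with marker shape giving the replicate number and bars the mean and SD, left out for Hand2 and Hoxa11. Tcf23, Zbtb16 and Hoxa10 separated by genotype, Fkbp5, Fkbp4 and Nr2f2 overlapped, and Hand2 and Hoxa11 had 0 reads in each KO library.

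Fkbp5 and Fkbp4 encode the immunophilins FKBP51 and FKBP52, which compete for a place in steroid receptor complexes. FKBP52 favours the activity of PGR and FKBP51 dampens that of the glucocorticoid receptor and PGR, while Fkbp5 is itself induced by both hormones. Fkbp5 (chromosome 17, 28618058 to 28737521, minus strand) was measured at 348, 487, 421 and 653 CPM in WT replicates 1 to 4 and at 368, 321 and 443 CPM in KO replicates 2 to 4. The genotypes overlapped, and WT replicate 4 stood above all others. WT averaged 477 ± 130 CPM (SD, n = 4) and KO 378 ± 61.5 CPM (SD, n = 3). The log2 fold change was -0.34 ± 0.2 (SE, 95% interval -0.79 to 0.11, edgeR adjusted p = 0.664). When libraries were left out in turn, the log2 fold change of Fkbp5 ran from -0.47 without KO replicate 4 to -0.14 without WT replicate 4.

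Fkbp4 (chromosome 6, 128406698 to 128415665, minus strand) was measured at 256, 292, 255 and 276 CPM in WT replicates 1 to 4 and at 272, 329 and 282 CPM in KO replicates 2 to 4. The highest value was in KO replicate 3, and the genotypes overlapped. WT averaged 270 ± 17.9 CPM (SD, n = 4) and KO 294 ± 30.6 CPM (SD, n = 3). The log2 fold change of Fkbp4 was 0.12 ± 0.0839 (SE, 95% interval -0.07 to 0.31, edgeR adjusted p = 0.72).

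Nr2f2 encodes COUP-TFII, the orphan nuclear receptor that relays epithelial hedgehog signals in the uterine stroma. It lies on chromosome 7 (70001692 to 70016519, minus strand). It was measured at 165, 140, 138 and 130 CPM in WT replicates 1 to 4 and at 137, 145 and 129 CPM in KO replicates 2 to 4. Only WT replicate 1 stood above the KO range. WT averaged 143 ± 15.2 CPM (SD, n = 4) and KO 137 ± 8.16 CPM (SD, n = 3). The log2 fold change was -0.07 ± 0.0865 (SE, 95% interval -0.26 to 0.13, edgeR adjusted p = 0.862). A transcript with a retained intron, Nr2f2-203, took 31.4 ± 0.734% of its reads in WT (SD, n = 4) and 32.7 ± 4.27% in KO (SD, n = 3).

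Hand2 encodes a bHLH factor that holds back growth factor signals of the uterine stroma, and Hoxa11 encodes the homeobox factor of the gene next to Hoxa10. Hand2 (chromosome 8, 57774011 to 57777677, plus strand) received 0, 1, 3 and 6 reads in WT replicates 1 to 4 and 0 reads in each KO library. Hoxa11 (chromosome 6, 52219074 to 52222806, minus strand) received 0, 1, 1 and 0 reads in WT and 0 in each KO library. Neither had enough reads to be tested. A count of 0 allows up to 3 reads, or 0.0482 to 0.0625 CPM in these libraries by counting error alone. The 6 Hand2 reads of WT replicate 4, or 0.0965 CPM, lay above this limit. A difference in Hoxa11 was not detectable at this depth, and that in Hand2 was not tested.

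**Figure D2:**
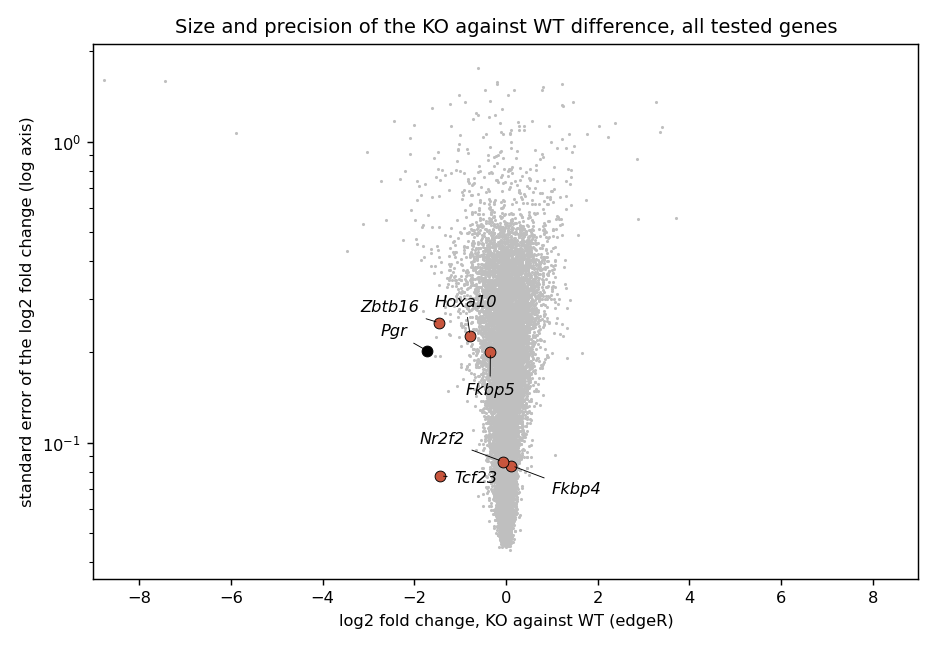
Log2 fold change of KO against WT (horizontal axis) and its standard error (vertical log axis) for the 19233 genes tested (grey), with the 6 tested genes of the list in red and Pgr in black. Tcf23 lies at -1.44 with a standard error of 0.0775, below Zbtb16 at nearly the same fold change with a standard error of 0.25, and Nr2f2 and Fkbp4 lie near 0.

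Levels between genes were compared in TPM, in which reads are also scaled by transcript length. In WT, Fkbp4 at 217 ± 29.6 TPM and Fkbp5 at 215 ± 67.7 TPM (SD, n = 4) were the highest of the list and overlapped each other. Nr2f2 followed at 91.0 ± 4.76 TPM, apart from its neighbours in the order. Tcf23 at 8.65 ± 0.408 TPM, Zbtb16 at 6.24 ± 2.18 TPM and Pgr at 5.51 ± 1.77 TPM formed a low group, in which Tcf23 and Zbtb16 overlapped, as did Zbtb16 and Pgr. Hoxa10 was at 1.02 ± 0.147 TPM. In KO, Tcf23 was at 3.29 ± 0.447 TPM, Zbtb16 at 2.43 ± 0.574 TPM and Pgr at 1.78 ± 0.352 TPM (SD, n = 3). Tcf23 lay above Pgr in each library of either genotype, Zbtb16 overlapped Pgr in WT and KO, and the cochaperones were far above all of them.

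The reads of Fkbp5 came from a pair of starts. Fkbp5-201 starts at 28705152 and Fkbp5-202 at 28737086, both on the minus strand of chromosome 17 and both coding. The share of Fkbp5-202 was 25.8, 32.9, 27.7 and 36.0% of the gene's reads in WT replicates 1 to 4 and 25.6, 23.9 and 32.7% in KO replicates 2 to 4. The genotypes overlapped, with 30.6 ± 4.69% in WT (SD, n = 4) and 27.4 ± 4.66% in KO (SD, n = 3). The two-sided exact permutation test gave an adjusted p of 0.829 over the 7 isoform shares compared. This test says little, since a single share cannot go below an adjusted p of 0.2 and at least 4 would have to be at the smallest p, 0.0286, to pass.

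The share of Fkbp5-202 followed the total level of Fkbp5 across libraries of both genotypes, a relation examined after the values had been seen. Fkbp5-202 ran from 76.7 to 235 CPM, a 3.06-fold range, and Fkbp5-201 from 241 to 407 CPM, a 1.69-fold range. Over the 7 libraries the share of Fkbp5-202 and the level of Fkbp5 gave a Pearson r of 0.925 (exact permutation p = 0.000397, adjusted p = 0.00278 over 7 isoforms) and a Spearman rho of 0.964 (exact permutation p = 0.00278, adjusted p = 0.0195). Without WT replicate 4 and KO replicate 3, the libraries farthest from the median level, r was 0.92. Of the other isoforms compared, only Fkbp5-201, whose share is nearly the remainder, passed (r -0.897, exact permutation adjusted p = 0.00278, and 0.0243 within genotypes). The transcript counts are part of the total they were compared with, and the division of shared reads between the transcripts is Salmon's estimate. With genotype means removed and libraries exchanged only within a genotype, r was 0.917 (exact permutation p = 0.00694, the smallest the 144 arrangements can give, adjusted p = 0.0243).

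**Figure D3:**
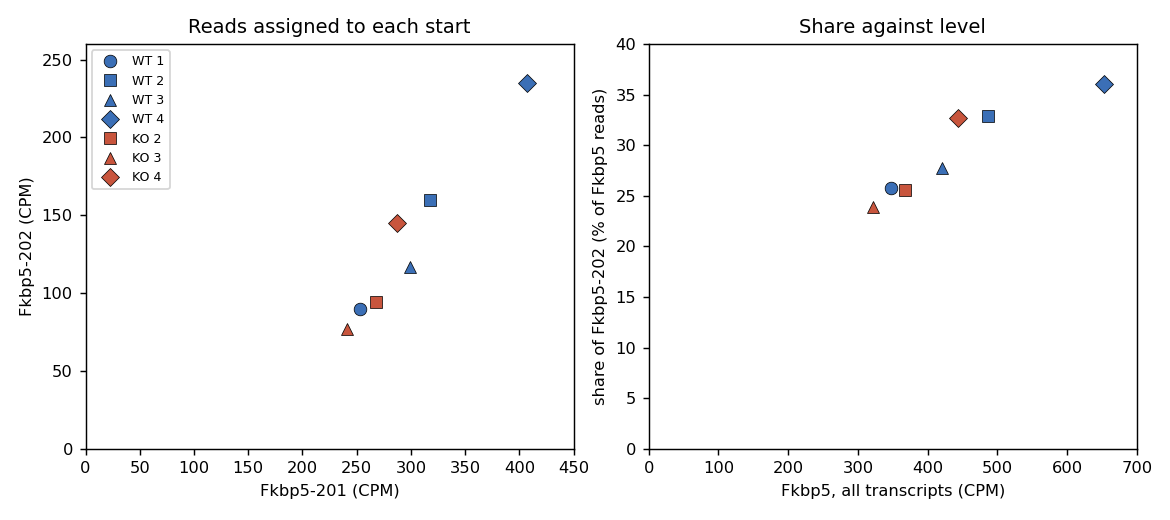
Left, CPM of Fkbp5-202 (vertical axis) against CPM of Fkbp5-201 (horizontal axis). Right, share of Fkbp5 reads in Fkbp5-202 (vertical axis, percent) against Fkbp5 CPM (horizontal axis). Each point is 1 of 7 libraries (WT blue, KO red, shape by replicate number), and the share runs from 23.9% in KO replicate 3 to 36.0% in WT replicate 4.

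To place the list among related genes, 5 lists of pathway genes were described by the same test, and limma-voom called none of their genes. These lists were also chosen with earlier results of these data known. In the uterine progesterone network (further targets, partners and effectors of PGR known from the uterus), 62 of 66 genes could be tested and none was called by edgeR. At an unadjusted p under 0.05, 5 of the 62 were lower and 1 was higher in KO, where 5.10% of all genes tested were lower and 3.84% higher. The median log2 fold change of the network was -0.06, and 41 of its genes had a fitted value below 0. Its lowest p belonged to Klf15, a Krüppel-like factor that also answers to glucocorticoid. Klf15 was measured at 17.6, 15.4, 15.4 and 16.1 CPM in WT and at 10.3, 11.8 and 11.5 CPM in KO, without overlap. Its log2 fold change was -0.53 ± 0.0825 (SE; edgeR adjusted p = 0.111), and DESeq2 called it (adjusted p = 3.1e-05).

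The other network genes with the lowest p were Ltf, which encodes lactotransferrin and is also an epithelial marker, and the growth factor gene Fgf2. Ltf was measured at a low level, 0.765 ± 0.132 CPM in WT and 0.422 ± 0.042 CPM in KO (SD, n = 4 and 3), with a log2 fold change of -0.86. Fgf2 was at 59.1 ± 1.25 and 50.4 ± 3.7 CPM, with a log2 fold change of -0.23. The most abundant genes of the network, Igfbp4, Stat3 and Errfi1, overlapped between genotypes, with log2 fold changes of 0.16, -0.06 and -0.20.

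Of 30 chaperones and immunophilins of steroid receptor complexes, all tested, 18 had a fitted value above 0 and 12 below, and edgeR and DESeq2 called none. At an unadjusted p under 0.05, 4 were higher in KO and 0 lower (3.84% and 5.10% of all genes tested), and the median log2 fold change was 0.02. Hspa8, the constitutive HSC70, was measured at 1860, 1770, 1810 and 1840 CPM in WT and at 2290, 2660 and 2280 CPM in KO. Each KO library lay above each WT library, with a log2 fold change of 0.41 ± 0.0801 (SE), an adjusted p of 0.19 in edgeR and of 3.8e-05 in DESeq2, under the fold change of 0.5 set for a call. Dnajb1, its stress-inducible partner, had a log2 fold change of 0.73 and overlapped between genotypes, at 144 ± 36.1 and 240 ± 76.6 CPM (SD, n = 4 and 3). Hsp90aa1 and Hsp90ab1, the chaperones that hold PGR itself, had log2 fold changes of 0.28 and 0.09. Hspa8 and the HSP90 genes have processed copies elsewhere in the genome, to which some reads may have been assigned. The summed level of the 30 genes was 6490 to 7330 TPM in WT and 7350 to 8460 TPM in KO.

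Among bHLH factors related to Tcf23 and Hand2, with their E protein partners and Id inhibitors, 22 of 24 were tested. None was called by edgeR, 4 were higher and 3 lower in KO at an unadjusted p under 0.05 (3.84% and 5.10% of all genes tested), and the median log2 fold change was 0.03. Scx, the tendon factor scleraxis, was measured at 8.55, 12.2, 13.6 and 23.2 CPM in WT and at 6.93, 5.21 and 6.47 CPM in KO. Its log2 fold change was -1.21 ± 0.301 (SE; edgeR adjusted p = 0.294), and DESeq2 called it (adjusted p = 0.00241). Tcf21, which marks fibroblasts of the ovarian stroma, was at 92.4 ± 10.1 and 70.5 ± 4.84 CPM (SD, n = 4 and 3), with a log2 fold change of -0.39. Bhlhe40, a repressor of the circadian clock, was at 143 ± 15.5 and 204 ± 57.7 CPM with overlap, a log2 fold change of 0.51. Id3 and Id2, the abundant inhibitors, had log2 fold changes of 0.07 and -0.24.

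Genes that respond to progesterone or glucocorticoid in several tissues, as Fkbp5 and Zbtb16 do, gave 24 tested of 25. None was called by edgeR, 5 were lower and 1 higher in KO at an unadjusted p under 0.05 (5.10% and 3.84% of all genes tested), and the median log2 fold change was -0.04. DESeq2 called 3 of them, all lower in KO, as it did 0.447% of all genes. Glul, which encodes glutamine synthetase, was measured at 384, 489, 388 and 473 CPM in WT and at 281, 297 and 284 CPM in KO, without overlap (log2 fold change -0.59 ± 0.0992 SE, edgeR adjusted p = 0.141, DESeq2 adjusted p = 2.5e-05). The metallothionein genes Mt2 and Mt1 had log2 fold changes of -0.84 ± 0.18 (SE; edgeR adjusted p = 0.23) and -0.55 ± 0.138 (SE; edgeR adjusted p = 0.305), also without overlap. Tsc22d3, which encodes the glucocorticoid-induced leucine zipper, was at 62.9 ± 5.09 CPM in WT and 47.1 ± 1.58 CPM in KO (SD, n = 4 and 3), with a log2 fold change of -0.42 ± 0.0704 (SE) and a DESeq2 adjusted p of 0.000449, under the fold change set for a call. Rgs2, an abundant gene of the list, was at 506 ± 22.5 and 510 ± 48 CPM.

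**Figure D4:**
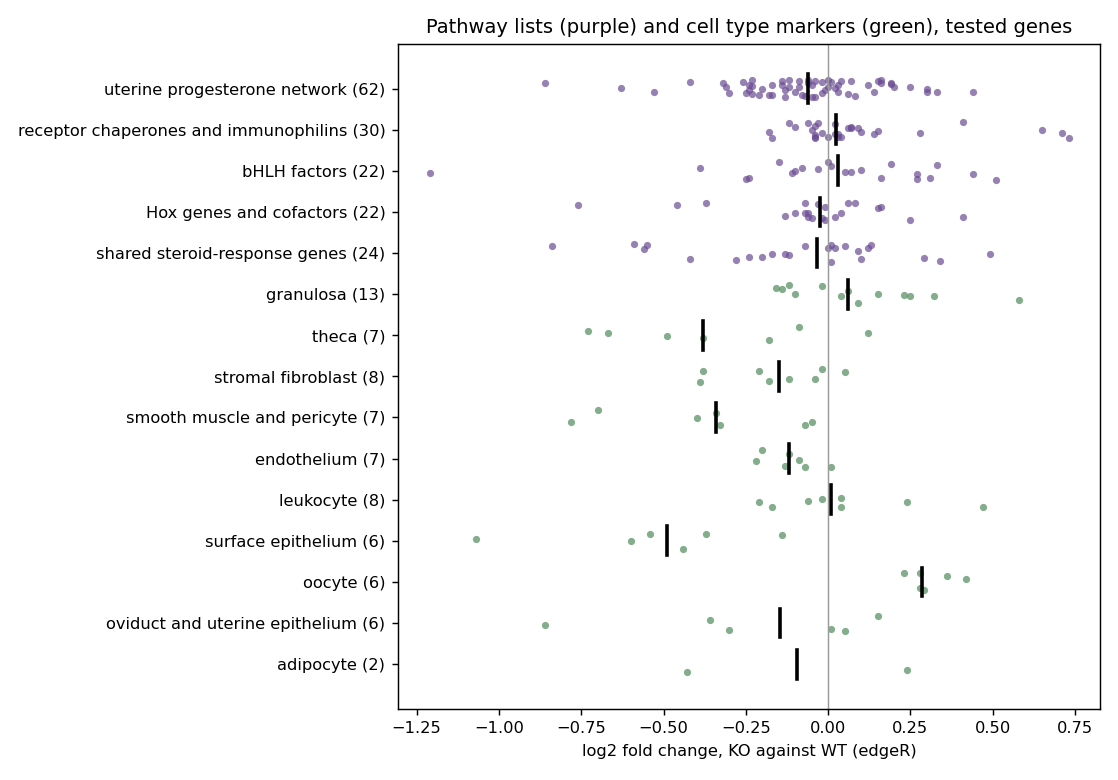
Log2 fold change of KO against WT (horizontal axis) of each tested gene (points) in the 5 pathway lists (purple) and 10 cell type marker lists (green), with the number of tested genes in parentheses and a black bar at the median. The pathway medians lie between -0.06 and 0.03, while the medians of theca, smooth muscle and surface epithelium markers lie at -0.38, -0.34 and -0.49 and that of oocyte markers at 0.29.

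No further Hox gene or cofactor of those listed reached the unadjusted p that Hoxa10 had. Of 28 Hox genes, antisense transcripts and TALE cofactors, 22 were tested and none was called by edgeR or DESeq2. Of these, 0 had an unadjusted p under 0.05 in either direction. Hoxaas2, a neighbour of Hoxa10 outside this list, had a log2 fold change of 0.71 (edgeR unadjusted p = 0.0204, adjusted p = 0.441). In WT the most abundant of the Hox genes listed were Hoxd8 at 25.6 ± 3.76 TPM, Hoxd9 at 18.4 ± 2.18 TPM and Hoxc8 at 15.9 ± 0.994 TPM (SD, n = 4). The list held no HoxB gene and no HoxC or HoxD gene before Hoxc8 or Hoxd8. Within the HoxA cluster, Hoxa2 to Hoxa9 ran from 0.655 TPM (Hoxa6) to 2.61 TPM (Hoxa3), Hoxa10 stood at 1.02 TPM, and Hoxa11 and Hoxa13 were below 0.1 TPM. The 5′ genes Hoxd12 and Hoxd13 were below 0.1 TPM as well. Hoxd11 had the log2 fold change nearest to that of Hoxa10, -0.76 ± 0.397 (SE), with overlap, Meis3 and Hoxa2 had 0.25 and 0.41, and the cofactor Pbx2 had 0.06. Hoxa6 and Hoxa9, in the same cluster, had -0.46 and -0.37.

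**Figure D5:**
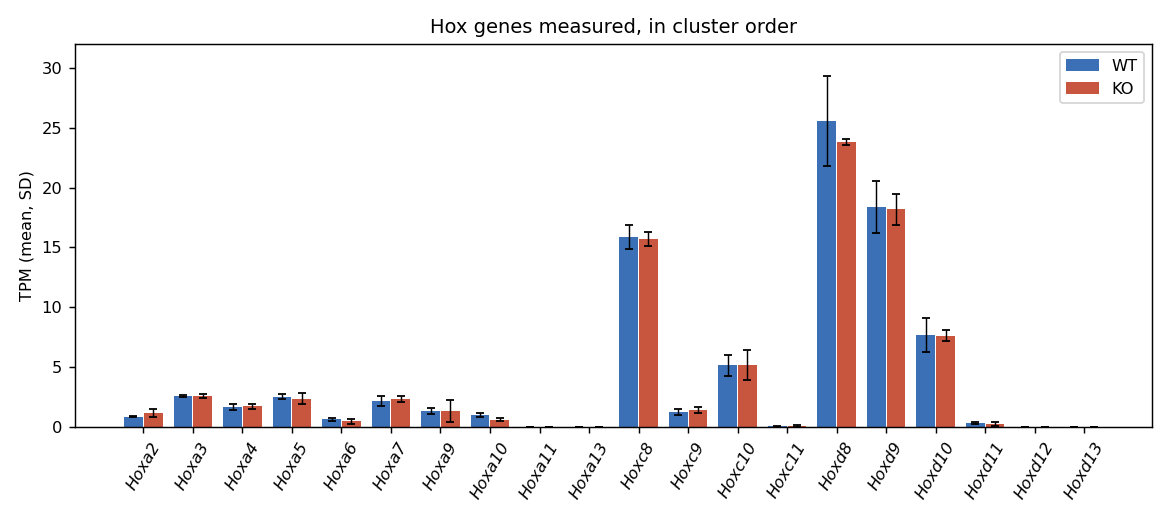
Mean TPM (vertical axis, from 0) of Hox genes in WT (blue, n = 4) and KO (red, n = 3) with SD, in the order of the HoxA, HoxC and HoxD genes along their clusters. Hoxd8, Hoxd9 and Hoxc8 are the highest of those shown. Hoxa10 stands at 1.02 TPM in WT and 0.615 TPM in KO, and Hoxa11 and Hoxa13 are below 0.1 TPM.

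None of the genes around the 8 loci was called. Within 100 kb of their starts 43 genes were tested, edgeR and DESeq2 called 0, and 5, including Hoxa10 as a neighbour of Hoxa11, had an unadjusted p under 0.05 (against 8.94% of all genes tested). The 11 tested neighbours of Tcf23 had log2 fold changes of -0.23 to 0.50. The nearest on either side were Preb, which starts 8.3 kb upstream (log2 fold change -0.23 ± 0.074 SE, edgeR adjusted p = 0.399), and Atraid, 79.7 kb downstream (-0.04 ± 0.0692 SE, adjusted p = 0.916). Zbtb16 had no tested neighbour in this window.

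The pattern of Tcf23 over the 7 libraries was compared with that of 14883 genes of at least 1 CPM by Pearson's r of log2 CPM. This is a description, since libraries of 2 genotypes share the genotype difference. The 5 genes most like it were Acss3 (r 0.987), Clec14a (0.986), Susd3 (0.984), Pttg1ip (0.984) and Rnf11 (0.982), and the 5 least like it were Gm43668 (-0.995), Spats2 (-0.982), BC065397 (-0.978), Sorl1 (-0.977) and Gkap1 (-0.977). Their differences between genotypes varied widely in size, from a log2 fold change of -0.16 for Rnf11 to -0.71 for Acss3, and from 0.09 for Spats2 to 1.06 for Sorl1. Sorl1, which edgeR called, was at 23.2 ± 2.84 CPM in WT, the level of Tcf23, and 48.2 ± 1.22 CPM in KO (SD, n = 4 and 3). Pgr ranked 12th, with r 0.963, and Zbtb16 ranked 130th, with r 0.903. Fkbp5, Nr2f2 and Fkbp4 had r of 0.509, 0.26 and -0.535. After the genotype means were removed, r with Tcf23 was 0.418 for Pgr, 0.314 for Fkbp5, 0.232 for Zbtb16, -0.17 for Nr2f2 and -0.225 for Fkbp4, and none of the 5 most like genes above was still among the first 5.

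The cells in the tissue were checked by marker lists of 10 cell types. Stromal fibroblast markers summed to 2980 to 4080 TPM in WT and 3150 to 3500 TPM in KO, with 7 of 8 fitted below 0. Theca markers summed to 7290 to 8900 and 6580 to 7630 TPM, with 6 of 7 below 0. The theca sum came mostly from Cyp11a1 and Fdx1, at 4670 and 1970 TPM in WT (log2 fold changes -0.18 and -0.09). Cyp17a1 and Insl3 were at 843 and 129 TPM in WT (log2 fold changes -0.67 and -0.49). Granulosa markers were still present after depletion, at 2950 to 4040 TPM in WT and 3660 to 4870 TPM in KO, with 8 of 13 fitted above 0. The sum of smooth muscle and pericyte markers did not overlap, at 1500 to 1780 TPM in WT and 1090 to 1450 TPM in KO. Of these markers 7 of 7 were fitted below 0, but Acta2, Myh11, Rgs5 and Notch3 each overlapped between genotypes. Rgs5 and Notch3 had log2 fold changes of -0.05 and -0.07. DESeq2 called Cnn1 and Des, where it called 0.447% of all genes as lower. Surface epithelium markers summed to 27.6 to 53.5 and 23.2 to 38.2 TPM, with 6 of 6 below 0 and Upk3b called by DESeq2 (log2 fold change -1.07, DESeq2 adjusted p = 0.0151). Oocyte markers summed to 201 to 287 and 261 to 361 TPM, with 6 of 6 above 0. Endothelial markers summed to 352 to 389 and 344 to 374 TPM, with 6 of 7 below 0, and leukocyte markers to 117 to 139 and 106 to 144 TPM, with 4 of 8 below 0. Adipocyte markers summed to 29.3 to 36.3 and 33.8 to 37.7 TPM, with Cidec and Lep below 0.1 TPM. Oviduct and uterine epithelium markers were at 3.34 to 6.02 TPM in WT and 3.82 to 4.32 TPM in KO, with Wfdc2 too low to be tested. No marker was called by edgeR. The part of these shifts in the lower Tcf23, Zbtb16, Hoxa10 and Scx of KO was not tested.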

How the data were processed

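RNA-seq of granulosa cell-depleted ovaries from 4 WT and 3 KO pools was used, with groups and replicate numbers from the labels. The authors quantified stranded mRNA libraries (paired-end, 100 bp) with Salmon against the GENCODE M26 transcriptome of GRCm39, and deposited expected counts and TPM per transcript. The Salmon version and strand setting are not given in the sources used here. Transcripts were matched to GENCODE M39 (137570 of 139225, 98.8%), and expected counts were summed per gene and rounded. TPM was summed for comparing levels between genes only. At 47.4 M to 63.4 M reads per library, counting error was small beside the common spread between pools, except for Hoxa10, Hand2 and Hoxa11. That common spread was a biological coefficient of variation of 0.127. Tcf23, with 1200 to 1430 reads per WT library, varied by only 3.1% in WT, so counting error was not small beside its spread.

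KO was compared with WT by edgeR 4.0.16 in R 4.3.3 (TMM, filterByExpr, glmQLFit with legacy=TRUE, glmQLFTest, two-sided). P-values were adjusted by Benjamini-Hochberg over 19233 genes. A call needed an adjusted p not above 0.05 and a log2 fold change of 0.5 or more in either direction. These are the study's thresholds for stroma, which it applied with DESeq2 before leaving out genes much higher in granulosa cells. No such filter was used here. Every adjusted p is from edgeR, or where named from DESeq2 1.42.0, limma-voom (limma 3.58.1) or an exact permutation test (scipy 1.17.1). Intervals of 95% were computed from the edgeR standard error. CPM used TMM factors. Isoforms with at least 10% of a gene's reads were compared by exact permutation of the libraries, and their shares with the gene's level also within genotypes, added after the values had been seen. Upstream windows were read from the GRCm39 genome. The fits were tested on simulated data.

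The genes and lists were chosen with earlier results of these data known, and the pathway and marker lists were written from general knowledge. The text names the 8 genes, Pgr, in each pathway list the 3 genes with the lowest p and the 3 with the highest TPM, the 5 genes most and least like Tcf23, and the nearest neighbours of Tcf23. One gene that this rule names is not reported here. Further Hox genes, Scx as a repeat, and single cell type markers were named with their values known. Alternatives were DESeq2, limma-voom, legacy=FALSE, median-of-ratios size factors, other filters, effective length offsets, a replicate block and leaving out each library.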

Additional observations from a re-analysis of the deposited data

How the results depend on the processing

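The log2 fold changes of Tcf23, Zbtb16, Fkbp5, Fkbp4 and Hoxa10 kept their sign under each alternative run. That of Nr2f2, -0.07, became 0.01 with a replicate block, 0.00 in DESeq2 with the block and length offsets, and ranged from -0.10 to 0.02 when libraries were left out in turn. Of the genes of the list other than Tcf23, edgeR called 0, and 1 (Zbtb16) was called in DESeq2, without a filter on low counts, and in DESeq2 with the block and length offsets. In the network, DESeq2 and the fit without a filter called 1 gene (Klf15), and DESeq2 with the block and length offsets called 2 (Prlr and Edn1). Of the bHLH factors, 1 (Scx) was called in DESeq2 with and without the block and offsets. Of the steroid-response genes, 3 were called in DESeq2, 1 (Glul) without a filter, and 3 in DESeq2 with the block and offsets. The cause of these changes was not tested. Of all genes tested, DESeq2 called 145 of 19233 and the fit without a filter 36 of 32790. DESeq2 with the block and length offsets called 196 of 19233.

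Over all genes, edgeR called 2, limma-voom 2, DESeq2 145, the legacy=FALSE fit 7, the fit without a filter 36, a filter of 10 reads in every library 6, and fits without single libraries 1 to 4. A shared replicate number was not taken to pair libraries. The correlations of same-numbered deviations were -0.0131, 0.106 and 0.0846, not all above 0.1. These values do not settle whether same-numbered libraries were paired. KO replicates 3 and 4 correlated best with the WT library of their own number, and KO replicate 2 with WT replicate 4 (0.0381). With the replicate block 26 genes were called, and with DESeq2, the block and length offsets 196. In this last fit Fkbp5 had an adjusted p of 1.39e-06 at a log2 fold change of -0.44, under the size set for a call, and with the block in edgeR an adjusted p of 0.0913.

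Of the 5 genes most like Tcf23, 0 were among the first 5 by Spearman's rho and 0 by deviations from genotype means. When libraries were left out, the difference in isoform share ranged from -1.51 to 0.767 percentage points for Nr2f2-201, from -0.752 to 3.51 for Nr2f2-203, from -8.8 to 4.9 for Hoxa10-203 and from -4.25 to 12.0 for Hoxa10-201. Depth limited Hoxa10 (24 to 66 reads per library), Hand2 and Hoxa11.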
